A study of Mus musculus with 39 samples.

Results

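The enzymes of glycolysis, fatty acid synthesis and triglyceride synthesis, with the factors that regulate them, were followed in RNA-seq libraries of liver and of triceps surae, a hindlimb muscle group. The group of 32 genes was listed by symbol and found through its Ensembl identifiers in the deposited gene tables, where it made up 32 of 46517 genes. Every mouse lacked both copies of Ins1. Tested mice had a single working copy of Ins2 (Ins1-/-;Ins2+/-), and their littermate controls had both (Ins1-/-;Ins2+/+). All were females of 25 weeks, of a mixed C57BL/6 and 129 strain, killed after a fast of 4 h. Diet B (Research Diets D12330) held 5.56 kcal/g, with 58% of calories from fat and 26% from carbohydrate. Diet A (LabDiet 5LJ5) held 4.68 kcal/g, with 25% of calories from fat and 55% from carbohydrate. There were 19 liver libraries, with 5 of Ins2+/- mice on diet B, 5 of Ins2+/- mice on diet A, 4 of Ins2+/+ mice on diet B and 5 of Ins2+/+ mice on diet A, and 20 muscle libraries, with 5 in each group. The mice carry the Ins1 and Ins2 alleles in all cells, and the controls are not wild type, since they lack Ins1 as well. Nothing in the labels says that replicates of a group are separate animals, so p-values measure the spread between these libraries.

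In the liver, glucose and fructose are broken down to pyruvate, and citrate leaves the mitochondria to give cytosolic acetyl-CoA. Acetyl-CoA carboxylase and fatty acid synthase build palmitate from it with NADPH, and elongases and desaturases remodel the product. Fatty acids are then placed on glycerol phosphate to make triglyceride. Insulin acts on these genes through the factor encoded by Srebf1, and glucose acts through the factor encoded by Mlxipl, also called ChREBP. Many genes of the set, though not all, are known for falling on fasting and rising on refeeding with carbohydrate.

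Library totals ranged between 1289225 and 54249818 estimated counts in liver (median 4847998) and between 1060469 and 13709576 in muscle (median 4080492). Hepatocyte markers summed to between 111657 and 169565 normalised CPM (counts scaled for library size) in liver, and all 10 were detected in every liver. Skeletal muscle markers summed to between 58333 and 114475 CPM in muscle, with all 7 detected in each. Ins2 itself, whose product is made in islets, ranged between 0.204 and 2005 CPM in liver and between 0.437 and 12363 CPM in muscle, and its highest values lay in Ins2+/- libraries, so it gave no check of the genotype labels. The islet genes Iapp, Gcg, Sst and Ppy together reached 5 CPM in 6 of 19 livers (4 Ins2+/- and 2 Ins2+/+) and in 9 of 20 muscles (5 Ins2+/- and 4 Ins2+/+). Livers Ins2+/- on diet B, replicates 2 and 3, were the most alike pair of any group, where chi-square over its degrees of freedom, with both thinned to 1000000 counts, was 1.13, and the next pair had 2.28. Whether they come from 1 animal is not given, so estimates were also made with both summed to 1 library. In these replicates 2 and 3, islet markers (Iapp, Gcg, Sst, Ppy and Ins2) summed to 0.445 and 39.3 CPM. Pancreatic acinar markers summed to 6.48 and 58.1 CPM. Liver Ins2+/+ on diet A, replicate 3, stood apart in many member genes, and results that turn on it are given with and without it. Across all genes, 3 other libraries also differed from their groups. Muscles Ins2+/- on diet B, replicates 2 and 4, had chi-square ratios of 31.2 to 55.4 to the rest of their group, and replicate 2 had 49.71% mitochondrial counts. Liver Ins2+/+ on diet B, replicate 5, had ratios of 18.9 to 19.7. Leaving out any 1 of these 3 libraries left 0 members called within each tissue and 30 between the tissues. The members' median log2 ratio in muscle was -0.03 without replicate 2 and -0.06 without replicate 4 for genotype (-0.08 with both), and 0.17 and 0.04 for the interaction of genotype and diet (0.07 with both).

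In the liver, no member passed the test for genotype, for diet or for their interaction. Single members differed widely within a group, and 1 Ins2+/+ library on diet A carried much of the difference between groups. The comparison of Ins2+/- with Ins2+/+ livers asks whether a smaller insulin gene dose goes with lower expression of these genes, many of them insulin-responsive. Averaged over diets, 0 of 32 members passed an adjusted p of 0.05 by edgeR's quasi-likelihood test, as against 1 of 11777 genes in all, or 0.00849%. DESeq2 and limma-voom also called 0 members. DESeq2 called 34 of all genes, the most of any alternative, so the 0 says little about the members. Estimates were below 0 for 27 of 32 members, with a median log2 ratio of -0.14, beside -0.00 over all genes. Without replicate 3 of Ins2+/+ on diet A they were below 0 for 23 members with a median of -0.06, and 2 below 0 and 1 above had an unadjusted p below 0.05 (8.4% of genes). With all libraries, at an unadjusted p below 0.05 there were 5 members with estimates below 0 and 1 above, or 6 of 32. Of all genes 9.65% reached that level, 5.32% below 0 and 4.33% above. In bulk tissue, fewer cells of a type and less RNA per cell cannot be told apart.

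Marker lists of other cells moved with genotype in the same livers. All 8 Kupffer cell markers had estimates above 0 at an unadjusted p below 0.05 (median 0.31, 0 called). Their sums ranged between 457 and 758 CPM on diet B and between 517 and 839 CPM on diet A in Ins2+/- livers. In Ins2+/+ livers they ranged between 351 and 519 CPM on diet B and between 417 and 523 CPM on diet A. All 5 islet markers (median 3.86) and all 8 tested pancreatic acinar markers (median 3.28) also had estimates above 0 at that level, as did 3 of 4 erythroid markers (median 0.55). Islet sums ranged between 0.248 and 3642 CPM on diet B and between 0.474 and 287 CPM on diet A in Ins2+/- livers. In Ins2+/+ livers they ranged between 0.512 and 122 CPM on diet B and between 0.613 and 31.6 CPM on diet A. Of the 10 hepatocyte markers 8 had estimates above 0, with a median of 0.13. Without the 6 livers with islet transcripts, 25 of 32 members still had estimates below 0, of which 0 reached an unadjusted p below 0.05, and Lpin1 alone did so above 0 (7.45% of genes). The part of Kupffer cell transcripts in the members' estimates was not tested.

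Acss2 (acyl-CoA synthetase that activates acetate; chr2:155517948-155585724, GRCm38) gave one of the lowest estimates. Its levels in Ins2+/- livers were 85.2, 84.4, 78, 125 and 87.9 CPM on diet B and 171, 79.8, 142, 149 and 152 CPM on diet A. In Ins2+/+ livers they were 163, 125, 109 and 175 CPM on diet B and 195, 118, 710, 114 and 138 CPM on diet A. The groups overlapped on each diet, although all Ins2+/- livers on diet B but replicate 4 lay below every Ins2+/+ liver there. The value of 710 CPM stood far above every other liver. The log2 ratio of Ins2+/- over Ins2+/+ was -0.76 ± 0.28 (SE; adjusted p = 0.41, edgeR), and it was -0.33 ± 0.14 without that library. In that fit it was -0.64 ± 0.20 on diet B (adjusted p = 0.98, edgeR) and -0.03 ± 0.20 on diet A.

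Acacb (the acetyl-CoA carboxylase of the mitochondrial surface, whose product restrains fatty acid import; chr5:114146535-114250761) was at 39.9, 58.9, 46.6, 102 and 59.9 CPM in Ins2+/- livers on diet B and at 83.6, 36.7, 73.4, 71.1 and 89 CPM on diet A. Ins2+/+ livers had 120, 115, 56.4 and 109 CPM on diet B and 110, 75, 305, 57.2 and 83 CPM on diet A. On diet B, 3 of 4 Ins2+/+ livers lay above all 5 Ins2+/- livers, and on diet A Ins2+/+ replicates 1 and 3 lay above all 5 Ins2+/- livers while the other 3 fell among them. The estimate was -0.78 ± 0.27 (adjusted p = 0.39) and -0.47 ± 0.20 without that library. Its relative Acaca (the cytosolic carboxylase that feeds fatty acid synthesis) had an estimate of -0.16 ± 0.18, and Fasn (fatty acid synthase) one of -0.15 ± 0.22. Without that library Acaca stood at -0.01 ± 0.16 and Fasn at 0.02 ± 0.19.

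Me1 (malic enzyme, a source of NADPH; chr9:86581371-86695953) had 176, 181, 168, 235 and 118 CPM in Ins2+/- livers on diet B and 273, 164, 167, 134 and 208 CPM on diet A. Ins2+/+ livers had 225, 192, 145 and 182 CPM on diet B and 393, 214, 645, 190 and 217 CPM on diet A. The groups overlapped on each diet, and the highest pair of values belonged to Ins2+/+ replicates 1 and 3 of diet A. The average estimate was -0.45 ± 0.20 (adjusted p = 0.48), that on diet A -0.81 ± 0.28 (adjusted p = 0.32) and that on diet B -0.08 ± 0.29, while the interaction (0.73 ± 0.40) was not called. Without Ins2+/+ replicate 3 of diet A, the average became -0.26, the estimate on diet A -0.43 and the interaction 0.34 ± 0.32.

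Lpin1 (lipin 1, a phosphatidate phosphatase of triglyceride synthesis that also acts as a nuclear coactivator; chr12:16535669-16610966) was the member whose estimate lay furthest above 0. It was at 89, 260, 296, 262 and 116 CPM in Ins2+/- livers on diet B and at 152, 189, 463, 312 and 280 CPM on diet A. In Ins2+/+ livers it was at 201, 98, 126 and 127 CPM on diet B and at 136, 129, 134, 175 and 232 CPM on diet A. On each diet, 3 of the 5 Ins2+/- livers lay above every Ins2+/+ liver, and of the others 1 on diet B, at 89 CPM, lay below every Ins2+/+ liver. The estimate was 0.68 ± 0.23 (adjusted p = 0.38), between 0.55 and 0.80 on leaving out any 1 library, and 0.97 ± 0.19 (adjusted p = 0.16) without the 6 livers that held islet transcripts. Lpin2, its relative, gave -0.13 ± 0.15.

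Elovl5 (an elongase of polyunsaturated fatty acids; chr9:77917364-77984519) had 430, 538, 541, 739 and 802 CPM in Ins2+/- livers on diet B and 336, 456, 615, 428 and 734 CPM on diet A. Ins2+/+ livers had 709, 808, 549 and 907 CPM on diet B and 540, 694, 857, 548 and 583 CPM on diet A. The groups overlapped on both diets, and the estimate was -0.31 ± 0.15 (adjusted p = 0.51), or -0.15 ± 0.16 without the livers with islet transcripts. Without replicate 3 of Ins2+/+ on diet A it was -0.25 ± 0.15. Mlxipl (ChREBP; chr5:135089890-135138382) averaged 233 ± 43.1 CPM on diet B and 249 ± 15.5 CPM on diet A in Ins2+/- livers (SD, n = 5 each). In Ins2+/+ livers it averaged 268 ± 49.4 CPM on diet B (SD, n = 4) and 294 ± 50.5 CPM on diet A (SD, n = 5). The Mlxipl estimate was -0.22 ± 0.10 (adjusted p = 0.47), and -0.18 ± 0.10 without replicate 3 of Ins2+/+ on diet A. Srebf1 gave -0.15 ± 0.13 and Thrsp, a small protein that goes with lipogenesis, -0.03 ± 0.29, so all 3 regulators had estimates below 0, 1 of them at an unadjusted p below 0.05.

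**Figure D1:**
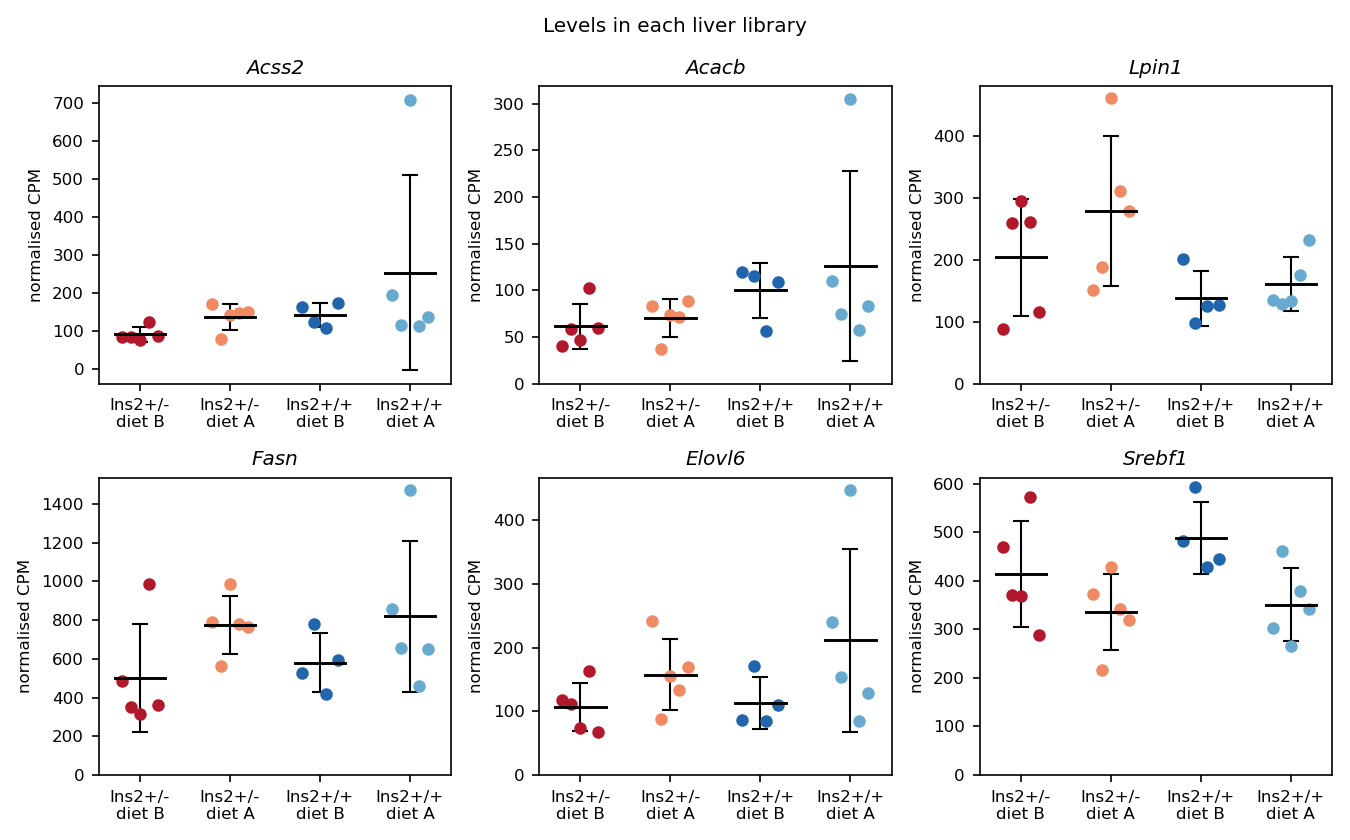
Normalised CPM of 6 member genes in each liver library (points), with the group mean (line) and SD (bars). Replicate 3 of Ins2+/+ on diet A is the highest point for Acss2 (710 CPM), Acacb (305 CPM), Fasn (1473 CPM) and Elovl6 (448 CPM).

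The remaining members had smaller or less certain genotype estimates. Those of glycolysis and fructolysis lay between -0.10 and 0.20, with Tkfc (triokinase, of fructose breakdown) the single estimate above 0. The pentose phosphate genes G6pdx, Pgd and Tkt, which supply NADPH and pentoses, lay between -0.28 and -0.10, and without replicate 3 of Ins2+/+ on diet A they gave 0.12, 0.06 and -0.08. Pnpla3, a lipid droplet lipase, had the largest SE of the members, with an estimate of -0.80 ± 0.43, and moved to -0.49 without replicate 3 of Ins2+/+ on diet A. Mogat1, which acylates monoacylglycerol, gave -0.44 ± 0.30, and -0.25 without replicate 1 of Ins2+/+ on diet A. Gpam, the first acyltransferase of glycerolipid synthesis, gave -0.30 ± 0.16, and -0.13 without replicate 3. Dgat1 and Dgat2, which make triglyceride in its last step, gave -0.06 ± 0.10 and -0.08 ± 0.11.

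Taken by diet, many of the members' genotype estimates on diet A turned on 1 library. On diet A, 0 members were called, beside 0.00849% of genes (1 of 11777). Estimates were below 0 for 27 of 32 members with a median of -0.15, and 5 below 0 and 1 above had an unadjusted p below 0.05, against 10.1% of all genes (5.41% below and 4.74% above). Without Ins2+/+ replicate 3, estimates were below 0 for 18 and above 0 for 14 members, with a median of -0.04. Acss2 then stood at -0.03, against -0.88 with it, Elovl6 at 0.04 against -0.43, and G6pdx at 0.31 against -0.48. On diet B, 0 members were called beside 0 of all genes (0%), 20 of 32 estimates were below 0 with a median of -0.08, and 0 members reached an unadjusted p below 0.05, against 4.25% of genes (3 below 0 without Ins2+/+ replicate 3 of diet A, against 4.5%). DESeq2 and limma-voom called 0 members on either diet. Of all genes they called 16 and 0 on diet A, and limma-voom called 37 on diet B, the most of any alternative there. With so few genes called, the 0 says little about the members.

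The diet comparison asks how the same genes respond to the fat-rich diet B relative to the carbohydrate-rich diet A. Averaged over genotypes, 0 of 32 members were called by edgeR, DESeq2 or limma-voom, while edgeR called 28 of 11777 genes (0.238%) and limma-voom 292. Estimates were below 0 on diet B for 23 members, with a median of -0.14 beside -0.00 over all genes, and for 22 with a median of -0.08 without replicate 3 of Ins2+/+ on diet A. An unadjusted p below 0.05 was reached by 9 of 32 members, 7 below 0 and 2 above, where 12.8% of genes reached it (6.29% below and 6.56% above). Without replicate 3 of Ins2+/+ on diet A these were 3 below and 2 above, against 12.2% of genes. Of other cells, 5 of 6 stellate cell and fibroblast markers had diet estimates above 0 (median 0.31, 2 at an unadjusted p below 0.05) and 4 of 4 erythroid markers had estimates below 0 (median -0.61, 2 at that level), 0 of them called. Stellate sums ranged between 209 and 246 CPM on diet B and between 193 and 240 CPM on diet A in Ins2+/- livers, and between 229 and 250 CPM on diet B and between 184 and 244 CPM on diet A in Ins2+/+ livers. Erythroid sums ranged between 213 and 404 CPM on diet B and between 222 and 429 CPM on diet A in Ins2+/- livers, and between 104 and 211 CPM on diet B and between 140 and 525 CPM on diet A in Ins2+/+ livers. Their part in the members' estimates was not tested.

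The 5 genes of cytosolic acetyl-CoA and NADPH supply all had estimates below 0, between -0.71 and -0.15. Aacs (acetoacetyl-CoA synthetase, which activates a ketone body for lipid synthesis; chr5:125475814-125517410) had the lowest p of the members. It was at 89.2, 84.3, 72.8, 101 and 37.3 CPM on diet B and at 127, 94.1, 105, 70.9 and 89.7 CPM on diet A in Ins2+/- livers. In Ins2+/+ livers it was at 71.2, 68.4, 64.6 and 57.5 CPM on diet B and at 106, 85.6, 173, 107 and 64.6 CPM on diet A. Among Ins2+/+ livers, all 4 on diet B lay below 4 of the 5 on diet A. The estimate was -0.52 ± 0.17 (adjusted p = 0.17) and -0.41 ± 0.15 without replicate 3 of Ins2+/+ on diet A.

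Acly (ATP citrate lyase, which splits exported citrate; chr11:100476353-100528000) had 506, 258, 227, 626 and 190 CPM on diet B and 555, 369, 477, 446 and 447 CPM on diet A in Ins2+/- livers. Ins2+/+ livers had 339, 292, 256 and 366 CPM on diet B and 575, 389, 1116, 290 and 407 CPM on diet A. The diet B values of Ins2+/- livers fell on both sides of those on diet A. The estimate was -0.59 ± 0.23 (adjusted p = 0.28), and -0.38 ± 0.20 without replicate 3. The diet estimate of Acss2, whose values are given above, was -0.71 ± 0.28 (adjusted p = 0.26), and -0.29 ± 0.14 without that library. In the fit without that library it was -0.60 ± 0.19 in Ins2+/- livers (adjusted p = 0.21, edgeR) and 0.01 ± 0.21 in Ins2+/+ livers. The interaction there was -0.61 ± 0.29 (adjusted p = 0.97, edgeR). Me1 gave -0.47 ± 0.20 (adjusted p = 0.32), and -0.28 ± 0.16 without it, and Slc25a1, the mitochondrial citrate exporter, gave -0.15 ± 0.09.

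Fasn (chr11:120805846-120824547) had 487, 353, 317, 985 and 360 CPM on diet B and 789, 563, 986, 782 and 762 CPM on diet A in Ins2+/- livers. Ins2+/+ livers had 527, 780, 418 and 595 CPM on diet B and 855, 653, 1473, 459 and 652 CPM on diet A. Among Ins2+/- livers, 4 of 5 on diet B lay below all 5 on diet A, and replicate 4 on diet B lay close to the highest. The estimate was -0.57 ± 0.22 (adjusted p = 0.26). Within Ins2+/- livers it was -0.64 ± 0.30 (adjusted p = 0.39), and -1.03 without replicate 4 of diet B. There limma-voom with sample weights gave -0.98 ± 0.28 with an adjusted p of 0.047, the only call of a member within a tissue by any setting tried. That setting called 553 of 11777 genes in this comparison, where edgeR called 5, so a call of 1 of 32 members does not set them apart. Acaca and Acacb gave -0.24 ± 0.18 and -0.27 ± 0.27, and -0.10 ± 0.16 and 0.05 ± 0.20 without replicate 3 of Ins2+/+ on diet A.

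Elovl6 (the elongase that turns palmitate into stearate; chr3:129532355-129638495) had the diet estimate furthest from 0. It was at 117, 112, 74.5, 163 and 67.6 CPM on diet B and at 241, 88.4, 156, 133 and 170 CPM on diet A in Ins2+/- livers. In Ins2+/+ livers it was at 86.5, 171, 84.2 and 110 CPM on diet B and at 240, 154, 448, 84.9 and 129 CPM on diet A. The diets overlapped in both genotypes. The estimate was -0.73 ± 0.26 (adjusted p = 0.21) and -0.50 ± 0.22 without replicate 3. The other elongases and the desaturases differed in direction, with Elovl5 at 0.23 ± 0.15, Elovl3 at 0.05 ± 0.34, Fads1 at -0.07 ± 0.10 and Fads2 at -0.00 ± 0.15.

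Srebf1 (chr11:60199089-60222581), which drives transcription of the synthesis enzymes, had an estimate of the opposite sign to most of them. It was at 470, 371, 369, 573 and 289 CPM on diet B and at 373, 216, 429, 341 and 319 CPM on diet A in Ins2+/- livers. In Ins2+/+ livers it was at 483, 594, 429 and 445 CPM on diet B and at 303, 462, 266, 380 and 342 CPM on diet A. Among Ins2+/+ livers, 2 of the 4 on diet B lay above all 5 on diet A, and the remaining pair lay below only replicate 2 of diet A. The estimate was 0.39 ± 0.13 (adjusted p = 0.19), and between 0.32 and 0.45 on leaving out any 1 library. Pfkl (liver phosphofructokinase) was also above 0 at 0.21 ± 0.08 (adjusted p = 0.25), while Tkfc was below at -0.31 ± 0.13 (adjusted p = 0.31). Pklr (liver pyruvate kinase) gave -0.16 ± 0.13 and Khk (ketohexokinase) -0.11 ± 0.12. The 9 genes of triglyceride synthesis and turnover lay between -0.33 (Lpin1) and 0.17 (Mogat1), 0 of them at an unadjusted p below 0.05, and the Lpin1 estimate was -0.20 without replicate 3 of Ins2+/- on diet A.

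**Figure D2:**
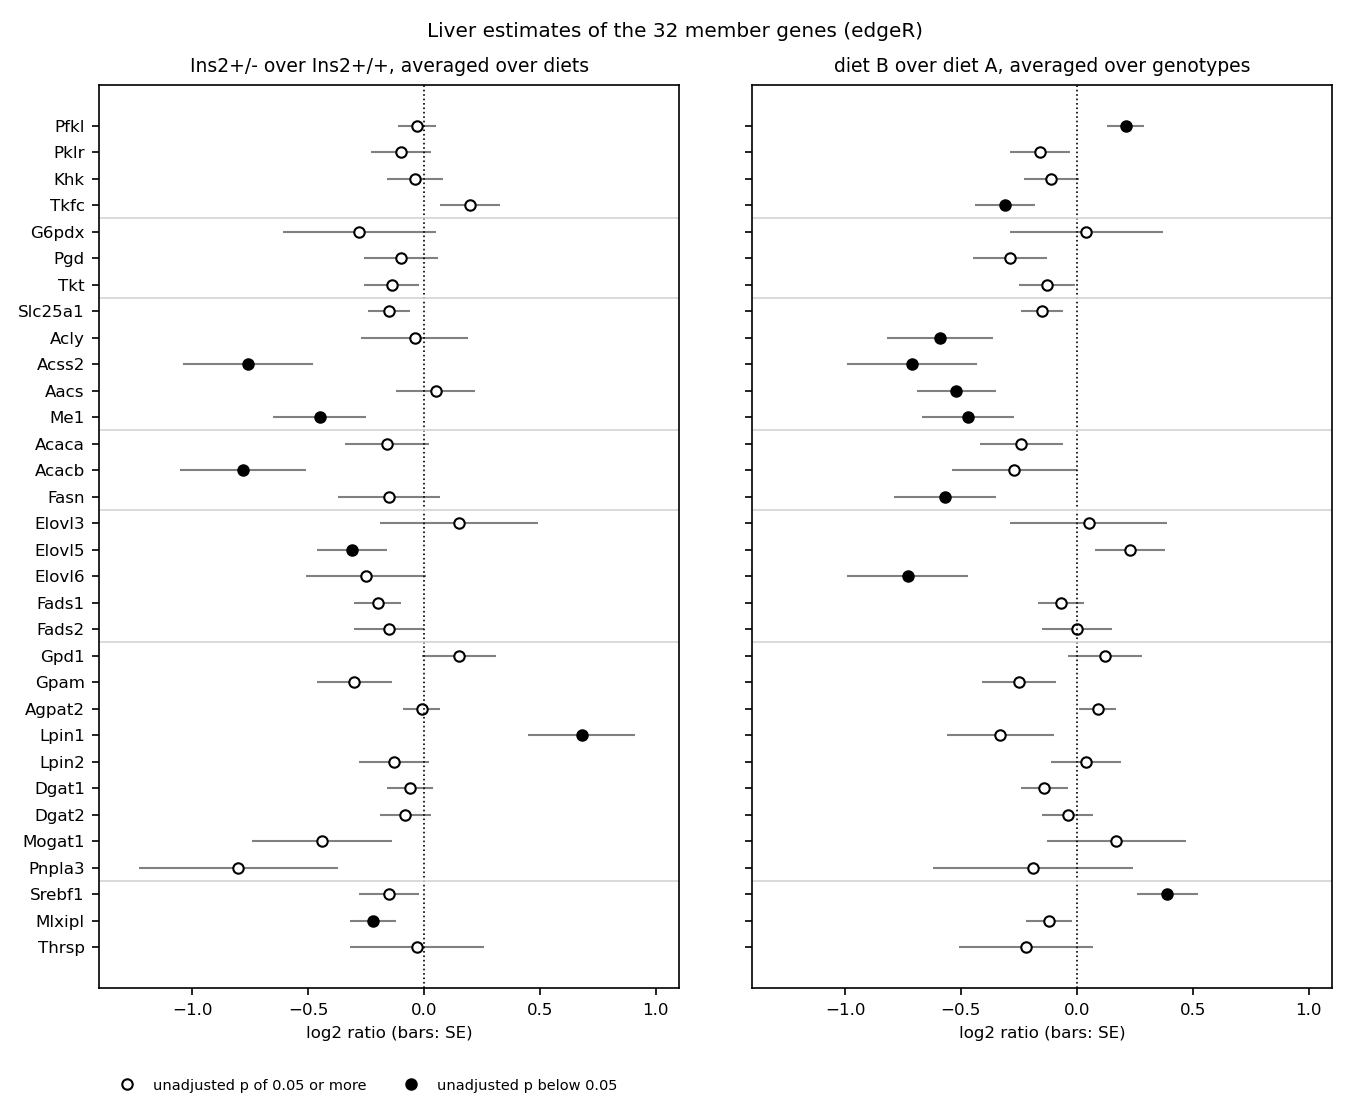
Log2 ratios of the 32 members in liver (points) with SE (bars), for Ins2+/- over Ins2+/+ and for diet B over diet A, in order of role. Filled points have an unadjusted p below 0.05 (6 for genotype, 9 for diet), and no member passed an adjusted p of 0.05.

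The diet estimates were also taken within each genotype. In Ins2+/- livers 0 members were called, against 0.0425% of genes (5 of 11777), 21 of 32 estimates were below 0 with a median of -0.10, and 1 below (Fasn) and 1 above (Pfkl, 0.24 ± 0.11) had an unadjusted p below 0.05, against 12.3% of genes (5.66% below and 6.64% above). In Ins2+/+ livers 0 were called, again beside 0.0425% of genes (5), and 25 of 32 estimates were below 0 with a median of -0.19. There an unadjusted p below 0.05 was reached by Acly, Aacs, Me1 and Elovl6 below 0 and by Srebf1 above (6.27% of genes, 3.19% below and 3.07% above). Without replicate 3 of diet A, 19 of 32 estimates were below 0 with a median of -0.05, and 1 member below 0 and 0 above had an unadjusted p below 0.05 (6.05% of genes). Acly was then at -0.41 ± 0.29, Aacs at -0.48 ± 0.23, Me1 at -0.45 ± 0.24, Elovl6 at -0.43 ± 0.33 and Srebf1 at 0.39 ± 0.20, and Acss2 gave 0.01 without it and -0.83 with all libraries. The interaction, which asks whether the diet estimate differs between genotypes, called 0 members and 0% of genes, and 0 members had an unadjusted p below 0.05, against 4.8% of genes. Its estimates were above 0 for 22 members with a median of 0.07, which turned to -0.06 without that library and to -0.09 in limma-voom. DESeq2 and limma-voom called 0 members for the interaction, where no alternative called any gene. DESeq2 called 0 members for either diet estimate, beside 17 of all genes in Ins2+/+ livers.

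No member separated the groups on any of the 4 simple liver comparisons. For Ins2+/- against Ins2+/+, 0 of 32 members had groups that did not overlap on diet A (1.59% of genes) and 0 on diet B (2.17%). For diet B against diet A, there were 0 in Ins2+/- livers (2% of genes) and 0 in Ins2+/+ livers (2.11%). At shares this low, 0 of 32 says little about the members.

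The members' extremes within groups fell in a few libraries. Replicate 3 of Ins2+/+ on diet A held the highest value of its group for 18 of 32 members, while it was highest for 21.2% of genes in all. Replicate 4 of the same group held the lowest value for 20 members, against 20.1% of genes. Among Ins2+/- livers on diet B, replicate 4 was highest for 18 members (22.7% of genes) and replicate 5 lowest for 17 (27.3%), and among those on diet A, replicate 2 was lowest for 13 (21.5%). Replicate 3 was high for acetyl-CoA supply and synthesis but not for all branches: Acly reached 1116 CPM, Fasn 1473 CPM, Gpam 334 CPM and G6pdx 20.1 CPM, the highest of the 5 in each case. Srebf1 in the same library was at 266 CPM, the lowest of its group, and Lpin1 was at 134 CPM, within it. Its total of 2827603 counts, its mitochondrial share of 7.432% and its sums of Kupffer cell (523 CPM) and islet (0.693 CPM) markers did not exceed those of all the other livers. What set the members' levels in it was not tested.

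**Figure D3:**
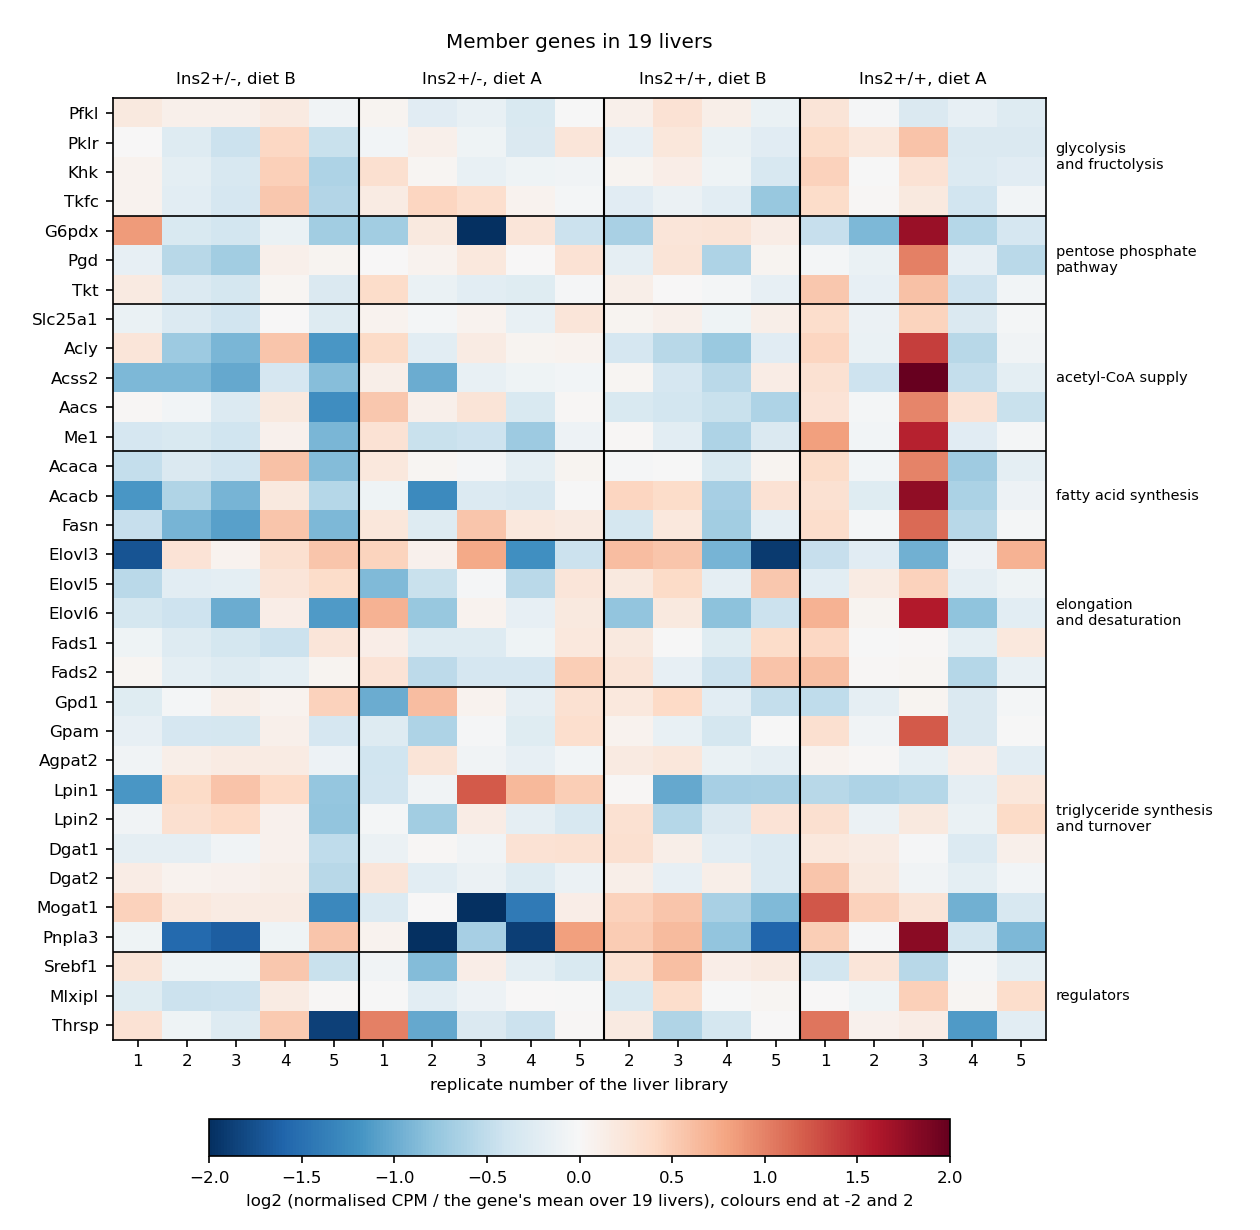
Levels of the 32 members (rows, by role) in 19 livers (columns, by group and replicate), as the log2 ratio of normalised CPM to the gene's mean over all livers. Replicate 3 of Ins2+/+ on diet A is highest in its group for 18 of 32 members, and replicate 4 of that group is lowest for 20.

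The promoters of the members were read for the letters bound by the known regulators. RefSeq windows on GRCm38.p6, from 250 bases before to 50 after each start site, were matched for 27 of 32 members (36 windows); Elovl3, Fads1, Gpd1, Dgat1 and Dgat2 had none. Both strands were searched. The sterol element TCACCCCAC was in 0 of 27 members and in 0.614% of all genes, and its core CACCCCAC, contained in it, was in 2 (Pgd and Gpam), or 7.41%, against 3.3% of genes. The E-box CACGTG, part of the carbohydrate element, was in 5 (Khk, Slc25a1, Elovl5, Lpin2 and Mlxipl), or 18.5%, against 8.09%. A pair of exact CACGTG boxes 5 bases apart, an idealised form of the carbohydrate response element, was in no window of any gene. The looser form CACG, 9 bases, CGTG was in Pklr alone among the members (3.7%, against 0.326% of genes). A pair of exact AGGTCA letters 4 bases apart, an idealised LXR element, was in 0 members and in 4 of 27025 genes (0.0148%). At that share the 0 says little about the members. The inverted CCAAT box ATTGG was in 17 members, or 63%, against 41.1% of genes. A match is a description of the letters and not of a bound site.

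The stretches around these letters are shown for the glucose-responsive pyruvate kinase and fructokinase genes, for ChREBP itself, for 1 elongase and the citrate exporter, for the genes that hold the sterol core, and for Fasn. They lie at chr3:89136428-89136494 (Pklr, plus strand), chr5:30921463-30921518 (Khk, plus), chr5:135089767-135089822 (Mlxipl, plus), chr9:77917179-77917234 (Elovl5, plus), chr16:17928428-17928469 (Slc25a1, minus), chr19:55127386-55127443 (Gpam, minus), chr4:149166196-149166253 (Pgd, minus) and chr11:120824577-120824662 (Fasn, minus). Each is written 5′ to 3′ on the gene's strand, with the matched letters in capitals: the looser carbohydrate element in Pklr, the E-box in the next 4, the sterol core in Gpam and, on the opposite strand, in Pgd, and 3 overlapping or neighbouring CCAAT boxes of either strand in Fasn.
Pklr: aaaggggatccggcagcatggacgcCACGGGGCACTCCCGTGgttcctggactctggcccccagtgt
Khk: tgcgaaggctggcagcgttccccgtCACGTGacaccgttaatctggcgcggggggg
Mlxipl: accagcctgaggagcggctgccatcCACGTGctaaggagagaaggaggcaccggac
Elovl5: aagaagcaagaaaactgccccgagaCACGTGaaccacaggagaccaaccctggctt
Slc25a1: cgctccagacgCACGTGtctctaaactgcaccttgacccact
Gpam: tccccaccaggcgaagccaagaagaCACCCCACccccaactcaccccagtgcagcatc
Pgd: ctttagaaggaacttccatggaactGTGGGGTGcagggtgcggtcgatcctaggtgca
Fasn: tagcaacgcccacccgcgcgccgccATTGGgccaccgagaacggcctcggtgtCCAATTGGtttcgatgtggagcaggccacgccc
The capitals in Pklr begin 170 bases before its RefSeq start site, those in Khk 71, in Mlxipl 98, in Elovl5 161, in Slc25a1 239, in Gpam 180 and in Pgd 146.

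A wider list of 101 other genes of the pathway, had 94 that could be tested in liver. For genotype, 0 were called by edgeR (2 above and 8 below 0 at an unadjusted p below 0.05), with a median of -0.03. The lowest p-values above 0 belonged to Ldha (lactate dehydrogenase, 0.27 ± 0.12, adjusted p = 0.48) and Pfkfb3 (0.45 ± 0.22, adjusted p = 0.51), and below 0 to Slc2a1 (-0.57 ± 0.17, adjusted p = 0.33) and Gckr (-0.18 ± 0.06, adjusted p = 0.38). On diet A these were Pgls (0.34 ± 0.13) and Pfkfb3 (0.73 ± 0.30) above and Gpat3 (-1.04 ± 0.28, adjusted p = 0.22) and Prkaa2 (-0.35 ± 0.12) below. On diet B, of the genes reported here, they were Cidec (0.89 ± 0.48) and Hk1 (0.54 ± 0.33) above and Insig1 (-0.54 ± 0.18) below, each with an adjusted p of 1.

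For diet, 1 of the 94 was called and rose on diet B (0.187% of genes were called higher). This was Slc2a1, the glucose transporter GLUT1, at 4.62, 8.7, 8.3, 8.06 and 6.21 CPM on diet B and 4.35, 3.88, 2.4, 4.02 and 5.28 CPM on diet A in Ins2+/- livers. In Ins2+/+ livers it was at 13.3, 8.53, 8.2 and 12.4 CPM on diet B and 7.17, 6.95, 4.16, 5.03 and 6.12 CPM on diet A. All 4 Ins2+/+ livers on diet B lay above all 5 on diet A, and 4 of 5 did so in Ins2+/- livers. The log2 ratio was 0.85 ± 0.17 (adjusted p = 0.027). The call was lost with replicates 2 and 3 of Ins2+/- on diet B taken as 1 library (0.82 ± 0.17, adjusted p = 0.068) and without the livers with islet transcripts (0.91 ± 0.20, adjusted p = 0.096). It was also lost on leaving out any of 7 single libraries, which were Ins2+/- replicates 2, 3 and 4 of diet B and 4 of diet A and Ins2+/+ replicates 2 and 5 of diet B and 4 of diet A, with adjusted p-values between 0.053 and 0.075. Within Ins2+/- livers the lowest p-values belonged to Slc2a1 (0.89 ± 0.23) and Gpat3 (0.95 ± 0.26) above 0 and to Taldo1 (-0.23 ± 0.10) and Pfkfb2 (-0.34 ± 0.14) below. There Slc2a1 and Gpat3 were not called by edgeR (adjusted p = 0.12 and 0.15). DESeq2 called both (adjusted p = 0.045 and 0.042), as did limma-voom (adjusted p = 0.013 and 0.017). Without replicate 1 of Ins2+/- on diet B, edgeR called Slc2a1 (adjusted p = 0.041). Within Ins2+/+ livers the lowest p-values belonged to Slc2a1 (0.81 ± 0.24) and Elovl2 (0.50 ± 0.15) above and to Prkaa1 (-0.36 ± 0.12) and Hacd1 (-0.51 ± 0.22) below. For the interaction they belonged to Gpat3 (1.08 ± 0.38) and Prkaa2 (0.48 ± 0.17) above and to Pfkfb2 (-0.48 ± 0.21) and Elovl1 (-0.30 ± 0.14) below, 0 of them called.

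Between the tissues the members differed far more than between groups. Over all 39 libraries, 30 of 32 members were called in liver against muscle, where 77.8% of 13714 genes were called. Of these, 25 were higher in liver (38% of genes) and 5 lower (39.8%), with a median log2 ratio of 3.42 over the members and -0.04 over all genes. The list was drawn up for liver pathways and holds liver forms such as Pfkl and Pklr. The excess of members higher in liver was therefore set in part by that choice. The median over all genes was 0.12 with RLE scaling or DESeq2 and -0.14 with upper-quartile scaling, which moved the members' median to between 3.32 and 3.58. For 21 members every liver lay above every muscle (15.8% of genes), and for 0 the reverse held (10.9%). The overlapping members were G6pdx, Pgd, Acly, Me1, Acacb, Elovl3, Gpd1, Gpam, Lpin1, Dgat1 and Pnpla3.

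Apart from Elovl3 and Mogat1, which had few counts in muscle, the largest ratios belonged to Pklr, Tkfc and Fads2. Pklr had 299 CPM at the lowest, 382 at the median and 593 at the highest in liver, and 0, 1.25 and 12.4 CPM in muscle, a log2 ratio of 7.72 ± 0.30 (adjusted p = 5.1e-24, edgeR). Tkfc had 276, 453 and 678 CPM in liver against 0, 3.32 and 8.77 CPM in muscle (6.79 ± 0.23). Fads2 had 217, 288 and 482 CPM in liver against 0.458, 3.2 and 6.63 CPM in muscle (6.68 ± 0.21). These 3 did not overlap, and their median muscle level was 0.327%, 0.733% and 1.11% of their median liver level. Hepatocyte markers, summed, stood in muscle at between 0.129% and 1.64% of their liver median (median 0.353%), with 9 or 10 of 10 detected. Whether such transcripts account for the muscle level of Pklr or Tkfc was not tested.

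Elovl3 and Mogat1 rested on few counts in muscle. Elovl3 had 774 counts over 19 livers and 4 in 1 of 20 muscles, and Mogat1 had 1099 over 19 livers and 24 in 4 of 20 muscles. Their fitted log2 ratios of 6.98 ± 0.61 and 6.11 ± 0.58 therefore depend on how near-zero counts are treated. Neither passed the filter on low counts in muscle alone, which 30 of 32 members passed.

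Fasn ranged between 312 and 1441 CPM in liver (median 636) and between 6.37 and 60.6 CPM in muscle (median 28.6), a log2 ratio of 4.36 ± 0.23. Srebf1 ranged between 214 and 583 CPM in liver (median 366) and between 13 and 85.1 CPM in muscle (median 41.4), a ratio of 3.05 ± 0.15. Mlxipl ranged between 190 and 353 CPM in liver (median 255) and between 23.4 and 96.6 CPM in muscle (median 54), a ratio of 2.17 ± 0.11. All 3 were called higher in liver with no overlap. Their levels per length of the longest coding transcript in muscle, 3.12, 10.9 and 15.9 CPM per kb on average, had the enzyme below both regulators, and in liver, at 65.8, 89.6 and 70.7 CPM per kb, Fasn lay close to Mlxipl.

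Acacb, Gpd1, Lpin1, Me1 and Gpam were called lower in liver. Acacb had 36.4 CPM at the lowest, 73.5 at the median and 299 at the highest in liver, against 95.3, 286 and 350 CPM in muscle (-1.69 ± 0.17, adjusted p = 3.7e-11). Gpd1 (cytosolic glycerol-3-phosphate dehydrogenase) had 124, 241 and 384 CPM in liver against 198, 517 and 734 CPM in muscle (-0.99 ± 0.12). Lpin1 had 87.1, 172 and 455 CPM in liver against 127, 337 and 413 CPM in muscle (-0.78 ± 0.15). These ranges overlapped although most muscles lay above most livers. Me1 had 117, 187 and 630 CPM in liver against 218, 317 and 401 CPM in muscle (-0.60 ± 0.12). Gpam had 92.3, 127 and 326 CPM in liver against 58.2, 174 and 255 CPM in muscle (-0.36 ± 0.15, adjusted p = 0.034), a call that DESeq2 (-0.18 ± 0.14, adjusted p = 0.24), RLE scaling (-0.18, adjusted p = 0.23) and the replicate block (-0.31, adjusted p = 0.06) removed. It was also lost without any 1 of 10 libraries (values between -0.33 and -0.27), which were livers Ins2+/- B 5, Ins2+/- A 2 and Ins2+/+ A 2 and muscles Ins2+/- B 1, B 3, B 5 and A 1 and Ins2+/+ B 1, B 5 and A 1. G6pdx (-0.45 ± 0.32) and Pnpla3 (0.59 ± 0.38) were not called, although DESeq2 called Pnpla3 (0.79, adjusted p = 0.041).

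**Figure D4:**
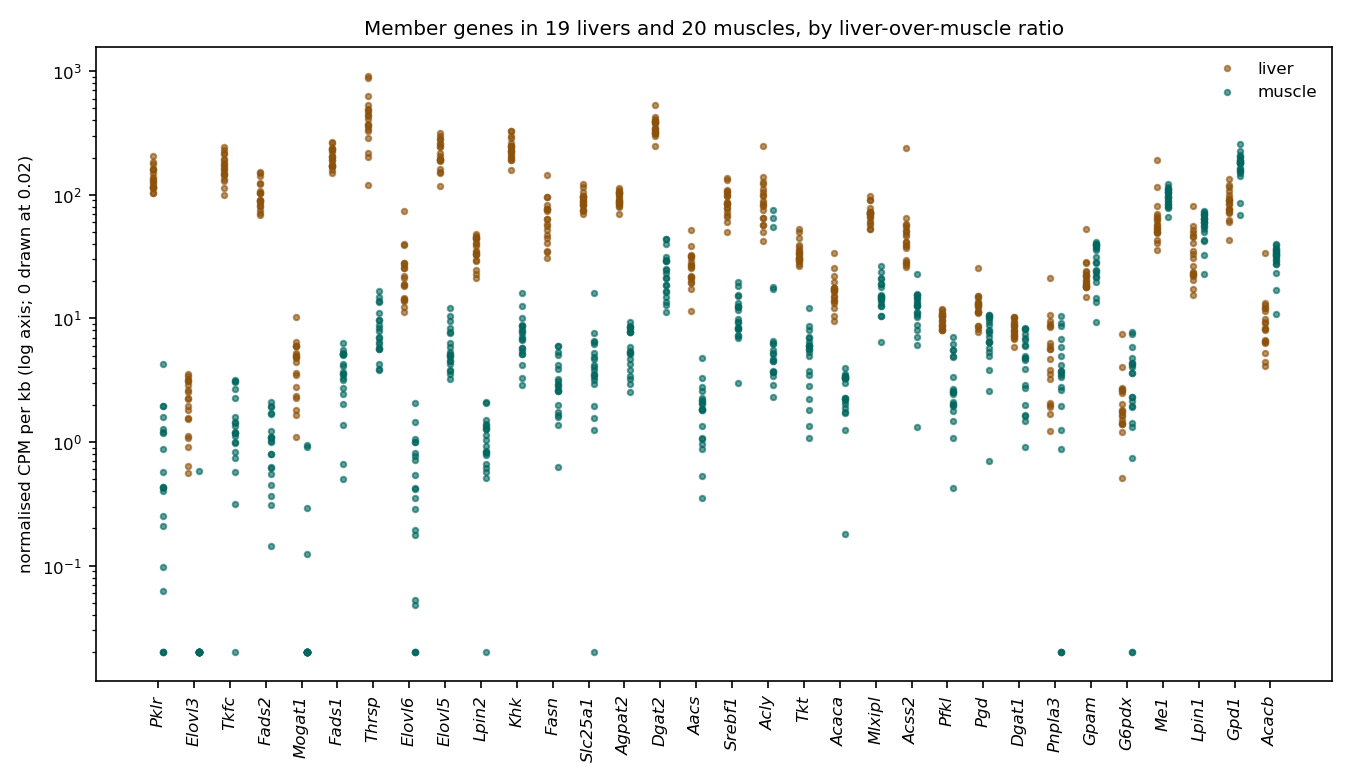
Normalised CPM per kb of transcript (log axis) of the 32 members in 19 livers and 20 muscles, ordered by the liver-over-muscle ratio. All livers lie above all muscles for 21 members, Pklr having the largest ratio, and Acacb, at the right, has the lowest.

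Within some pairs of related genes the balance differed between the tissues. Per length of the longest coding transcript, Acaca stood at between 1 and 4.29 times Acacb in livers (median 1.88) and at between 0.0078 and 0.237 times in muscles (median 0.0816). Lpin2 stood at between 0.494 and 2.2 times Lpin1 in livers (median 1.15) and at between 0 and 0.0664 times in muscles (median 0.0166). Dgat2 stood at between 30.1 and 56.5 times Dgat1 in livers (median 43.7) and at between 1.36 and 27.7 times in muscles (median 5.48). None of these 3 ranges overlapped between the tissues. The other pairs examined did overlap. Elovl5 stood at between 2.98 and 25.4 times Elovl6 in livers (median 9.67). In muscles with Elovl6 counts it stood at between 3.06 and 231 times (median 10.8). Fads1 stood at between 1.64 and 2.57 times Fads2 in livers and at between 0.91 and 12 times in muscles. Srebf1 stood at between 0.62 and 1.92 times Mlxipl in livers and at between 0.128 and 1.46 times in muscles. By mean level per length, the leading members in liver were Thrsp (437 CPM per kb), Dgat2 (363) and Khk (239), and in muscle Gpd1 (174), Me1 (96.2) and Lpin1 (57.4). Of the 22 other glycolytic genes listed, 7 were called higher and 14 lower in liver (median -1.44), and of 18 tested genes of fatty acid elongation and activation 14 were higher and 3 lower (median 1.51).

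In muscle the members gave 0 calls for genotype, for diet or for the interaction by edgeR, DESeq2 or limma-voom. The most genes called by any alternative were 3, 4 and 1 for these, each time by DESeq2. For genotype, edgeR called 0% of 11959 genes, 18 of 30 tested members had estimates below 0 with a median of -0.08, and 1 above and 1 below had an unadjusted p below 0.05, against 3.24% of genes (2.2% above and 1.04% below). For diet, 0.00836% of genes were called (1), 11 of 30 members were below 0 with a median of 0.05 (16 with a median of -0.03 without Ins2+/- replicate 4 of diet B), and 1 above and 1 below had an unadjusted p below 0.05 (3.8% of genes, 1.95% above and 1.85% below). For the interaction, 0% of genes were called, 12 of 30 members were below 0 with a median of 0.07, and 1 above and 1 below had an unadjusted p below 0.05 (3.24%, 1.93% above and 1.3% below).

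Acly had the largest muscle genotype estimate. It was at 26.3, 247, 18.5, 360 and 22 CPM on diet B and at 15.1, 282, 23.6, 15.1 and 18.8 CPM on diet A in Ins2+/- muscles. In Ins2+/+ muscles it was at 23, 13.4, 78.5, 10.7 and 16.3 CPM on diet B and at 27.7, 15.3, 75.4, 27.8 and 22 CPM on diet A. The 5 muscles above 70 CPM were the 5 with the most islet transcripts. Iapp, Gcg, Sst, Ppy and Ins2 summed in them to 9164 and 19170 CPM (Ins2+/-, diet B, replicates 2 and 4), 6312 CPM (Ins2+/-, diet A, replicate 2), 3824 CPM (Ins2+/+, diet B, replicate 3) and 1918 CPM (Ins2+/+, diet A, replicate 3). Muscles with 795 and 567 CPM of islet transcripts had 13.4 and 18.5 CPM of Acly. Pancreatic acinar markers summed to 760, 24118, 247, 950 and 142 CPM in the 5 muscles, in the order above. They summed to 205 and 211 CPM in the muscles with 795 and 567 CPM of islet transcripts. The part of islet or acinar transcripts in the Acly levels was not tested. The log2 ratio of Ins2+/- over Ins2+/+ was 1.66 ± 0.62 (adjusted p = 1), and -0.07 ± 0.23 without the 9 muscles with islet transcripts.

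**Figure D5:**
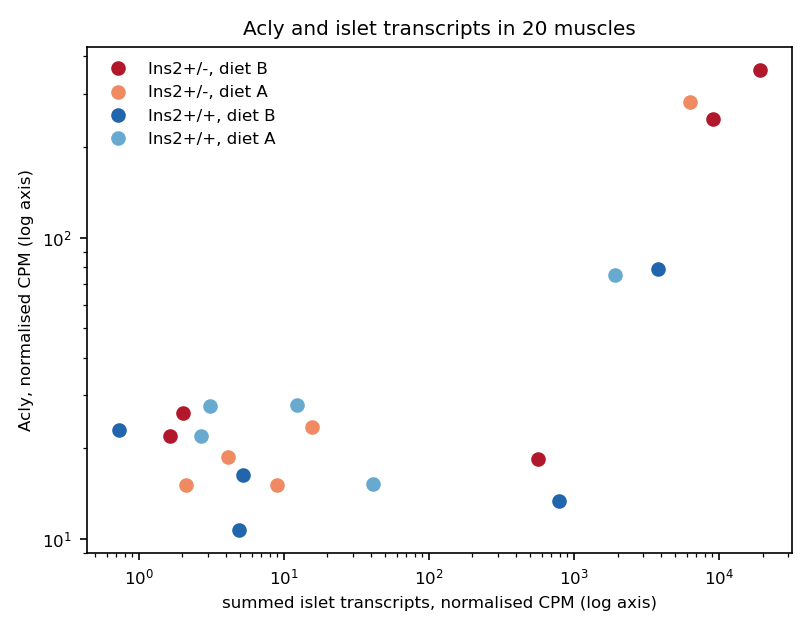
Acly in normalised CPM against the summed islet markers Iapp, Gcg, Sst, Ppy and Ins2 in normalised CPM, both on log axes, in 20 muscles coloured by group. The 5 muscles with Acly between 75.4 and 360 CPM have the 5 highest islet sums, between 1918 and 19170 CPM.

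Other members of muscle had small estimates or few counts. Acss2 gave -0.51 ± 0.24 for genotype (adjusted p = 1), and -0.49 ± 0.22 without the muscles with islet transcripts. Pgd gave 0.59 ± 0.28 and Mlxipl -0.45 ± 0.17 for diet, and 0.96 ± 0.27 and -0.28 ± 0.18 without those muscles (adjusted p = 1 for each). Pgd was at 22.1, 21.2, 21.2, 1.66 and 22.6 CPM on diet B and at 10.3, 14, 17.7, 8.38 and 11.2 CPM on diet A in Ins2+/- muscles. In Ins2+/+ muscles it was at 16.3, 18.1, 22.5, 18.5 and 21.5 CPM on diet B and at 13.6, 18.4, 12.6, 5.85 and 13.6 CPM on diet A. Replicate 4 of Ins2+/- on diet B, at 1.66 CPM, lay below its own floor of 3 counts (2.6 CPM). The lowest of the other diet B values was 16.3 CPM, a level taken from these values, and 8 of 10 muscles on diet A lay below it. The interaction estimates of Pklr (3.92 ± 1.52) and Agpat2 (-1.25 ± 0.56, an acyltransferase of phosphatidate synthesis) each had an adjusted p of 1, and Pklr was at 0 in 3 of 20 muscles. Without the muscles with islet transcripts they were 2.56 ± 2.19 and -1.20 ± 0.75. All 10 hepatocyte markers had interaction estimates above 0 in muscle, 7 of them at an unadjusted p below 0.05 (median 2.16, 0 called). Their sums ranged between 357 and 2245 CPM on diet B and between 163 and 1422 CPM on diet A in Ins2+/- muscles. In Ins2+/+ muscles they ranged between 206 and 541 CPM on diet B and between 269 and 1777 CPM on diet A. Their part in the Pklr estimate was not tested.

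Of the 92 other pathway genes tested in muscle, 0 were called for genotype, 1 for diet and 0 for the interaction. The 1 was Scd1 (stearoyl-CoA desaturase, which makes oleate), the only gene of 11959 called. It was at 1311, 1724, 667, 637 and 903 CPM on diet B and at 249, 134, 70.8, 203 and 135 CPM on diet A in Ins2+/- muscles. In Ins2+/+ muscles it was at 1482, 1053, 776, 519 and 1170 CPM on diet B and at 592, 225, 326, 116 and 211 CPM on diet A. Every Ins2+/- muscle on diet B lay above every one on diet A, and in Ins2+/+ muscles only 519 CPM on diet B lay below the highest diet A value. The log2 ratio was 2.24 ± 0.28 (adjusted p = 0.00031), and 2.14 ± 0.33 (adjusted p = 0.081) without the muscles with islet transcripts. With the summed adipocyte markers as a covariate it was 2.01 ± 0.22 (adjusted p = 5.3e-05). Adipocyte markers summed to between 195 and 962 CPM on diet B and between 203 and 519 CPM on diet A in muscle, with 5 to 7 of 7 detected. All 8 tested acinar markers had diet estimates above 0 at an unadjusted p below 0.05 (median 4.84, 0 called), and their part in the Scd1 result was not tested. For genotype the lowest p-values belonged to Insig1 (0.49 ± 0.24) and Slc2a5 (2.41 ± 1.21) above 0 and to Mlxip (-0.39 ± 0.16) and Aldoa (-0.21 ± 0.10) below. Insig1 gave 0.32 without Ins2+/- replicate 2 of diet B, and Slc2a5 gave 1.31 without Ins2+/- replicate 2 of diet A and 4.91 without Ins2+/+ replicate 3 of diet A. For the interaction, of the genes reported here, they belonged to Mpc1 (0.49 ± 0.25) above and to Nr1h2 (-1.04 ± 0.43) and Pgk1 (-0.51 ± 0.24) below, each with an adjusted p of 1.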

How the data were processed

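RNA of 19 livers and 20 triceps surae muscles was sequenced from TruSeq v2 libraries, per the labels' protocols, a kit that does not mark strand, so overlapping genes on opposite strands cannot be told apart. The deposited files hold estimated counts per gene for each library, made by the authors with kallisto 0.42.3 on GRCm38, per the submitters' processing notes, which also list DESeq2 (version not given). How transcripts were summed to genes is not given in the sources used here. Symbols, positions and lengths (longest coding transcript) came from GENCODE on GRCm38, which held 46005 of 46517 identifiers (98.9%), and the rest carried 0.264% of counts.

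Estimated counts were rounded and tested in R 4.3.3 with edgeR 4.0.16: TMM scaling, filterByExpr by group and the quasi-likelihood test with Benjamini-Hochberg adjustment over all genes tested, at a threshold of 0.05. The 4 groups of a tissue shared one spread (11777 genes in liver, 11959 in muscle), and all 39 libraries entered the comparison of tissues (13714 genes). SE is the size of the log2 ratio over the square root of F. At 3 counts the floor of a library was between 0.0553 and 2.33 CPM in liver and between 0.219 and 2.83 CPM in muscle, which covers counting error only. DESeq2 1.42.0, limma 3.58.1 (voom with sample weights), RLE and upper-quartile scaling, other filters (none, or at least 1 CPM in 4 libraries with a mean count of 20), a replicate block, robust estimation, an adjusted p of 0.1, and leaving out libraries were the alternatives. The edgeR code was tested on simulated data.

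The members and lists were chosen with earlier results of these data known. All 32 members are named. Of the other pathway genes, those called are named, or otherwise the pair with the lowest p on each side of 0 in each comparison, apart from some that are not reported here.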

Additional observations from a re-analysis of the deposited data

Results flagged for a closer look

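Among 251 sets of member values within a group of 4 or 5 libraries, 32 (12.7%) held a library set apart. Its gap to its nearest neighbour passed Dixon's 95% critical value. Chance flags about 1 in 20 groups of independent, normally spread values. CPM were tested without a log and members vary together, so the chance share in these sets is not known. Where all other libraries were at 0, as for Elovl3 and Mogat1 in muscle, the flag followed from the zeros. Values are normalised CPM, followed by the range of the other libraries of the group. What set them apart was not tested.

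In livers of Ins2+/+ mice on diet A, replicate 3 stood high for G6pdx (20.1, others 3.27 to 4.8), Pgd (57.5, others 19.7 to 27.8), Acss2 (710, others 114 to 195), Acacb (305, others 57.2 to 110) and Gpam (334, others 117 to 177). In livers of Ins2+/- mice on diet B, replicate 4 stood high for Acss2 (125, others 78 to 87.9), Acaca (248, others 91.2 to 136) and Fasn (985, others 317 to 487). Replicate 5 of that group stood low for Dgat2 (571, others 875 to 922) and Mogat1 (2.24, others 6.15 to 7.54), and replicate 1 stood high for G6pdx (10.9, others 3.73 to 5.51). Dgat2 was high in replicate 1 of Ins2+/- livers on diet A (990, others 701 to 773), and G6pdx was low in replicate 2 of Ins2+/+ livers on diet B (3.87, others 6.74 to 7.29).

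In Ins2+/- muscles on diet B, Khk was low in replicate 2 (4.7, others 12 to 14.9) while Slc25a1 was high there (27.3, others 5.5 to 11.6). Replicate 4 was low for Pgd (1.66, others 21.2 to 22.6) and high for Aacs (16.6, others 2.69 to 6.11), and Mogat1 was seen in replicate 1 (1.08, others 0). In Ins2+/- muscles on diet A, replicate 2 was high for Acly (282, others 15.1 to 23.6) and Elovl5 (21.1, others 11.8 to 14), replicate 5 for Khk (18.8, others 8.1 to 10.4) and replicate 3 for Mlxipl (97.4, others 47.1 to 55.9).

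In Ins2+/+ muscles on diet B, Acly was high in replicate 3 (78.5, others 10.7 to 23), where Agpat2 was low (6.33, others 11.6 to 13.6), and Lpin2 was low in replicate 5 (3.39, others 7.28 to 7.56). In Ins2+/+ muscles on diet A, replicate 3 was high for Pfkl (26, others 4.09 to 9.09), Acly (75.4, others 15.3 to 27.8) and Gpd1 (717, others 447 to 511). Replicate 1 was high for Elovl6 (6.03, others 1.17 to 2.34) and Agpat2 (8.27, others 3.8 to 4.9), Elovl3 was seen in replicate 2 (1.04, others 0), and G6pdx was at 0 in replicate 4 (others 4.9 to 5.86).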

How the results depend on the processing

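The counts of members called within a tissue were 0 under each alternative run and on leaving out each library, except for 1 (Fasn) with limma-voom for diet in Ins2+/- livers, where the cause was not tested. For liver against muscle, 30 members were called, with 29 to 30 across the alternatives and on leaving out each library. No called member changed direction. Of 11038 member estimates over all comparisons and alternatives, 425 changed sign, 34 of them without replicate 3 of Ins2+/+ livers on diet A and 0 of them in liver against muscle. The number of genes called over all was less steady: for liver diet it was 28 with edgeR, 207 with DESeq2, 292 with limma-voom, 42 with the block and 8 without livers with islet transcripts. It was 5 with edgeR, 131 with DESeq2 and 553 with limma-voom for diet in Ins2+/- livers. The median of the members' interaction in muscle was 0.07 with edgeR and -0.18 with limma-voom.

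Replicate numbers are shared between groups. The correlation of the deviations of same-numbered libraries ranged between -0.24 and 0.37 in liver (median 0.04, 27 pairs). In muscle it ranged between -0.13 and 0.34 (median 0.07, 30 pairs). Over all pairs across both tissues it ranged between -0.32 and 0.23 (median 0.00, 76 pairs). These last pairs join libraries of matching and of different groups. They therefore cannot tell whether a liver and a muscle of the same group and number came from the same mouse. Nor do these ranges settle whether the numbers mark a batch. With the replicate block, 29 members were called in liver against muscle and 0 in each other comparison.

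Shallow libraries limit members with few counts: at the depth of the shallowest liver, 3 counts stand for 2.33 CPM, against member levels near that value for G6pdx, Pnpla3, Mogat1 and Elovl3.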
